A study of Mus musculus with 9 samples.

Results

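Gene expression in the amygdala was compared with that in the prefrontal cortex of the same mice. The comparison used 6 of the 9 arrays of the study: 3 of amygdala and 3 of prefrontal cortex, chosen by the labelled tissue and paired by diet. The 3 hypothalamus arrays entered the fit and gave a further point of comparison. All mice were male C57BL/6J of genotype WT, aged 8 to 9 weeks and killed on day 8 at 14:00. They had free access to food (AD), went through repeated fasting and refeeding (RFR), or were given a restricted amount of food (CR), set at 50% of the amount that RFR mice ate and spread over 2 days. Each array held RNA of 4 pooled mice, so a region on a diet had 1 array and no replicate. The 3 arrays of a region are therefore 3 diets, and their spread holds the diets' effects and technical error along with the differences between pools. The amygdala and hypothalamus were taken from 1 mm coronal slices cut 1.5 to 2.5 mm posterior to bregma. The label of the prefrontal cortex gives its slice as 2.5 to 3.5 mm posterior to bregma, and Lamp5, Cux2 and Fezf2, markers of cortical layers, were well above background on all 3 of its arrays. In mice the prefrontal cortex lies in front of bregma, so the position and the name on that label disagree. These markers are of cortex in general and do not show which part of it was taken. On the amygdala arrays they read lower, but also above the lowest signal that was well above background. Their presence alone therefore does not identify cortex. The tissue is called prefrontal cortex as labelled.

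The amygdala is a group of nuclei in the temporal lobe that assigns emotional value to stimuli and sets fear, anxiety and feeding responses. Its basolateral part is built largely of glutamatergic neurons akin to those of cortex. Its central and medial parts and the intercalated cell masses are rich in GABAergic neurons, many of which resemble striatal neurons or carry neuropeptides. The prefrontal cortex is layered: glutamatergic projection neurons of the upper layers connect cortical areas, those of the deep layers project below the cortex, and interneurons marked by parvalbumin, somatostatin or vasoactive intestinal peptide inhibit them. Bulk RNA from a dissected region mixes all of these cells, so that fewer cells of a type and less RNA per cell cannot be told apart.

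Each value is a processed signal on the log2 scale, from which the 75th percentile of that array's 43379 noncontrol spots has been subtracted. A value of 0 equals that percentile, and 1 unit is a 2-fold change. Values are listed in the order AD, RFR and CR. Unless stated, the 3 amygdala values of a called gene and its 3 prefrontal cortex values did not overlap. Levels of different genes come from different probes and cannot be set against each other. Of the noncontrol spots, 59.8% to 69.6% were well above background on each array. The amygdala and prefrontal cortex arrays of the AD mice lay on 1 slide, together with the prefrontal cortex of RFR mice. The amygdala of RFR mice shared a slide with the prefrontal cortex of CR mice, and the amygdala of CR mice was on a slide with no other array of the study. Region and slide were therefore partly, not wholly, separable.

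Of 12622 genes fitted, 2814 (22.3%) differed between amygdala and prefrontal cortex in limma at a Benjamini-Hochberg adjusted p of 0.05. There were 1531 genes higher in amygdala (12.1%) and 1283 lower (10.2%). Folds were counted over called genes well above background on all 6 arrays, of which 1241 were higher and 1208 lower. Among the higher ones, 347 differed by 2-fold or more, 74 by 4-fold or more and 17 by 8-fold or more. Among the lower ones, 341 reached 2-fold, 55 reached 4-fold and 4 reached 8-fold. The median size of the difference was 0.70 log2 units for the higher and 0.72 for the lower genes. The same direction was seen in all 3 diets for 1529 of the higher and 1275 of the lower genes. The 3 amygdala arrays did not overlap the 3 prefrontal cortex arrays for 1414 of the higher and 1224 of the lower genes. On the slide with both AD arrays, all 1531 higher and all 1283 lower genes had the direction of the fit. Between the RFR amygdala and the CR prefrontal cortex, which shared another slide, 1509 and 1262 did. These counts of direction and overlap were taken among genes called on the same arrays, which favours such agreement. They describe the calls and are no separate support for them. Centring each array on its median instead of scaling by the 75th percentile shifted the median of all genes by -0.131 log2 units, against 0.0035 in the fit reported here, and gave 999 higher and 1772 lower genes. The share of calls that were higher was then 36.1%, against 54.4%. With slide as a block, which left 2 residual degrees of freedom, 828 genes were higher and 562 lower. The count also depended on single arrays. It was 892 without the RFR pool and 1568 without the CR pool, 1812 without the RFR amygdala array, and 1827, 1628 and 1661 without the AD, RFR and CR prefrontal cortex arrays. Fits without a pool left 2 residual degrees of freedom and those without 1 array left 3, against 4 in the reported fit. A call can therefore be lost in them with little change in the difference.

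**Figure D1:**
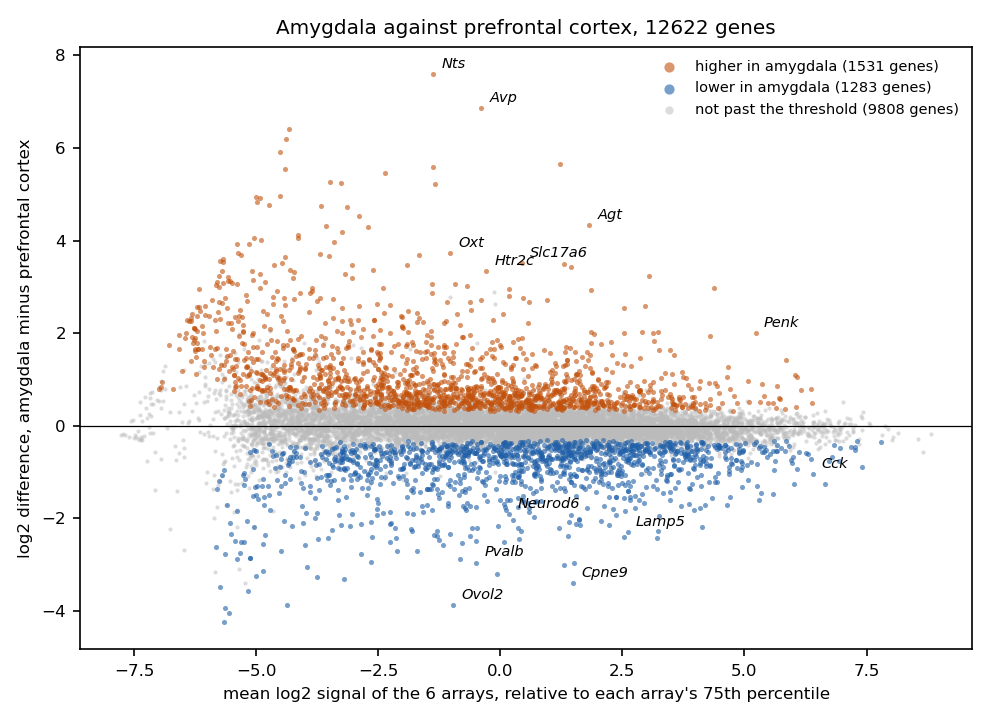
Log2 difference between amygdala and prefrontal cortex (vertical) against the mean log2 signal of the 6 arrays (horizontal) for 12622 genes. Orange points are the 1531 genes higher in amygdala, blue points the 1283 lower and grey points the rest. Among genes well above background on all 6 arrays, Avp is the highest point at 6.87 and Ovol2 the lowest at -3.88; points further out were not well above background on at least 1 array.

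Among genes well above background on all 6 arrays, the 15 largest differences on the higher side included peptide hormones, receptors and transporters. Avp (NM_009732), the vasopressin precursor, measured 2.87, 3.31 and 2.94 in amygdala, against -4.09, -3.73 and -3.66 in prefrontal cortex. The difference was 6.87 ± 0.14 (SE), or 117-fold (adjusted p = 3.5e-06), and every amygdala array lay far above every prefrontal cortex array. Agt (NM_007428), angiotensinogen, which astrocytes make in the brain, measured 3.91, 4.29 and 3.74 in amygdala and -0.48, -0.24 and -0.32 in prefrontal cortex, 20.1-fold higher (adjusted p = 1.3e-05). Oxt (NM_011025), the oxytocin precursor, measured 1.12, 1.15 and 0.22 in amygdala and -3.001, -3.14 and -2.57 in prefrontal cortex, 13.3-fold higher (adjusted p = 0.00024). Among the 3 amygdala arrays, that of CR mice was the lowest for Oxt.

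Slc17a6 (NM_080853), the vesicular glutamate transporter VGLUT2 of subcortical glutamatergic neurons, measured 2.19, 1.88 and 2.52 in amygdala and -1.44, -1.53 and -0.96 in prefrontal cortex. It was 11.4-fold higher in amygdala (adjusted p = 1.3e-05). Cyp26b1 (NM_175475), an enzyme that degrades retinoic acid, measured 3.40, 2.87 and 2.89 in amygdala and 0.13, -0.25 and -1.23 in prefrontal cortex, 11.3-fold higher (adjusted p = 0.00031). Nr2f2 (NM_009697), which encodes the transcription factor COUP-TFII, measured 3.28, 3.20 and 2.98 in amygdala and -0.11, -0.20 and -0.50 in prefrontal cortex, 10.7-fold higher (adjusted p = 1.3e-05). The groups did not overlap for any of these 3 genes. Other leading genes were Igsf1, Clic6, the secreted glutathione peroxidase Gpx3, the proton pump subunit Atp6v1c2, the receptors Trhr and Htr2c, Zcchc12 and Rnf138rt1, with differences from 3.07 to 5.59. By the mean of its probes Igsf1 was at 3.65.

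The 15 largest differences on the lower side included a transcription factor, a Wnt ligand, the interneuron marker parvalbumin and genes of striated muscle. Ovol2 (NM_026924), a zinc finger transcription factor, measured -2.63, -2.91 and -3.18 in amygdala, against 1.29, 1.01 and 0.63 in prefrontal cortex. The difference was -3.88 ± 0.13, or 14.7-fold lower (adjusted p = 1.3e-05). Cpne9 (NM_170673), a calcium-dependent phospholipid-binding protein, measured 0.05, -0.17 and -0.53 in amygdala and 3.15, 3.15 and 3.23 in prefrontal cortex, 10.6-fold lower (adjusted p = 2.6e-05). Wnt10a (NM_009518), a secreted Wnt ligand, measured 0.16, -0.28 and -0.47 in amygdala and 2.65, 2.77 and 3.03 in prefrontal cortex, 8.08-fold lower (adjusted p = 0.00012). Pvalb (NM_013645), the calcium-binding protein parvalbumin of fast-spiking interneurons and of muscle, measured -1.92, -2.05 and -1.96 in amygdala and 0.76, 0.79 and 1.39 in prefrontal cortex, 7.78-fold lower (adjusted p = 0.00016). All 3 amygdala arrays lay below all 3 prefrontal cortex arrays for these 4 genes.

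Tcap and Mybpc3, which encode sarcomere proteins of striated muscle, were also among the 15 largest differences, at -3.20 ± 0.16 and -2.95 ± 0.20 (adjusted p = 5.5e-05 and 0.00015). Tcap measured -1.19, -1.65 and -2.18 in amygdala and 1.64, 1.59 and 1.34 in prefrontal cortex. Of 9 fitted genes on a skeletal muscle list, none was higher in amygdala and 3 were lower: Myh1, Pvalb and Acta1 (adjusted p of Acta1 = 0.045, and 0.23 without the RFR pool). The median difference of that list was -0.48 (but -0.73 without the CR pool and -0.28 without the AD pool), and its median level ranged from -3.40 to -2.92 over amygdala arrays and from -2.88 to -1.91 over prefrontal cortex arrays. Whether muscle RNA had a part in the Tcap and Mybpc3 differences was not tested. The other leading genes on this side were Hkdc1, Ackr2, Golt1a, Ccn4, S100a9, Sowahb, Arhgap25, Spag6 and Hspb3, from -2.97 to -2.50.

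**Figure D2:**
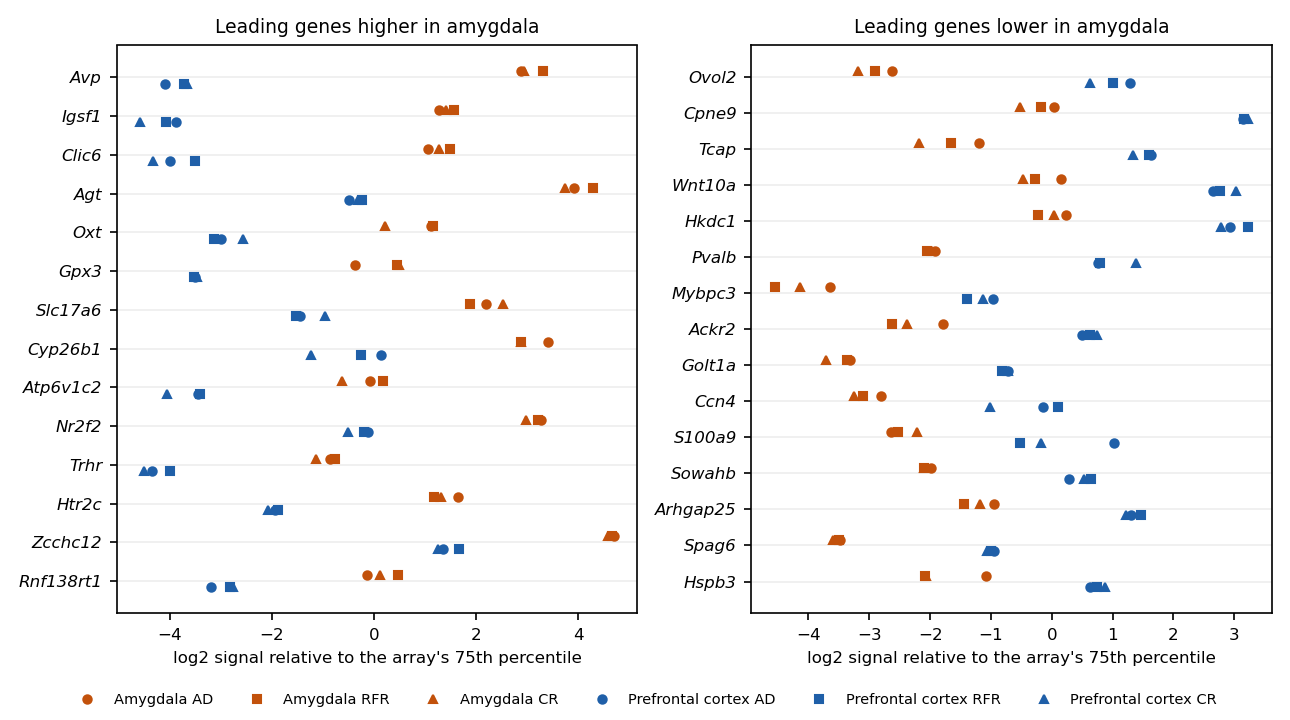
Log2 signal relative to the array's 75th percentile (horizontal) of genes among the 15 largest differences in each direction that were well above background on all 6 arrays. Orange marks are amygdala and blue marks prefrontal cortex arrays, with a circle for AD, a square for RFR and a triangle for CR; in every gene drawn the orange and blue marks do not overlap.

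For some genes a whole region lay below the detection limit, and a fold is then a lower bound. It sets the mean of the brighter region against the mean, per array, of the higher of the gene's own signal and the lowest signal that was well above background. An undetected signal can lie above that lowest signal, so the bound depends on this choice. Of the genes called higher, 190 were not well above background on any prefrontal cortex array. Of those called lower, 26 were not so on any amygdala array. Of called genes, 66 higher and 58 lower had fewer than 3 arrays well above background outside the region where they were high. They reached the filter, 3 such arrays of 9, only through that region and so had to differ. The calcitonin receptor gene Calcr measured -1.30, -0.91 and -1.17 in amygdala and was at least 18.8-fold higher there (adjusted p = 7.5e-06). Lhx5, a LIM homeodomain transcription factor, measured -1.55, -1.08 and -1.28 in amygdala and was at least 16.7-fold higher (adjusted p = 1.1e-05). Lhx9, a related factor, measured -1.65, -1.44 and -1.58 and was at least 14.0-fold higher (adjusted p = 1.3e-05). Drd2, the dopamine D2 receptor, measured -1.91, -1.60 and -0.74 and was at least 13.6-fold higher (adjusted p = 0.0003). The bounds were 22.3-fold for AW551984, 16.6-fold for Krt18, a keratin, 16.6-fold for Sostdc1, a secreted antagonist of BMP signals, and 15.3-fold for Slitrk6.

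On the lower side, Helt, a transcription factor of the basic helix-loop-helix class, measured -2.74, -2.22 and -2.33 in prefrontal cortex, and amygdala was at least 8.97-fold lower. Ocm, oncomodulin of the parvalbumin family, was at least 4.17-fold lower in amygdala, and Kcng4, a modifier subunit of voltage-gated potassium channels, at least 4.71-fold lower. The bounds of Prss16, Cryba2, Serpinb8, Tspan11 and Adamts13 ran from 3.78-fold to 4.65-fold. All 8 of these genes reached the filter only through prefrontal cortex arrays, so their bounds are a description, and no test is given. With normexp background correction, which compresses dim signals, the log2 differences of the 8 genes on the higher side were 1.996 to 2.87 and those of the 8 on the lower side -1.72 to -0.96. Each was smaller in size than its bound on the log2 scale. The same held for the other genes given a bound in the paragraphs below. An "at least" fold is therefore a bound under the reported background correction only.

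Genes were then grouped in 43 lists by cell type or function. Counts on these lists are read beside the shares of all genes, 12.1% higher and 10.2% lower. There were 34 lists with at least 3 genes called in a direction. The number of called genes was over 1.5 times smaller for 20 of them without the RFR pool, for 8 without the CR pool and for 17 with slide as a block. Brackets after a median give the counts and medians under alternatives that moved a count by over 1.5 times, or a median by that much and by over 0.15 log2 units. The count meant is that of both directions together, so the count in 1 direction can move by more without a bracket. The counts include called genes that reached the filter only through the region where they were high: 2 in each direction on the list of regional transcription factors, and 1 each on the upper-layer, medial amygdala, hippocampal, blood, serotonin receptor, cholinergic, potassium channel, retinoic acid, Wnt and immediate early lists.

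Genes of the upper cortical layers were lower in amygdala. Of 14 fitted genes on their list, 9 were lower and none was higher, with a median difference of -1.06, against 0.0035 for all genes. The median level of the list was -1.28 to -1.102 over amygdala arrays and 0.42 to 0.52 over prefrontal cortex arrays. Lamp5, a lysosome-associated membrane protein of cortical neurons, measured 1.32, 1.30 and 1.76 in amygdala and 3.69, 3.62 and 3.96 in prefrontal cortex, 4.91-fold lower (adjusted p = 6.4e-05). Inhba, a subunit of activin, measured -1.84, -1.33 and -1.61 in amygdala and 0.76, 0.62 and 0.51 in prefrontal cortex, 4.67-fold lower (adjusted p = 0.00014). Cux2, a homeodomain factor of upper-layer neurons, measured -0.78, -0.87 and -0.69 in amygdala and 0.21, 0.43 and 0.33 in prefrontal cortex, 2.15-fold lower (adjusted p = 0.00051). Nectin3, Mef2c, Lhx2, Pou3f3 and Rasgrf2 were also lower, from -1.53 to -0.74. The calls of Lhx2 and Rasgrf2 were lost without the RFR pool (adjusted p = 0.19 and 0.2), and so was that of Pou3f3 (adjusted p = 0.18). The differences of Lhx2, Rasgrf2 and Pou3f3 were then -1.10, -0.75 and -1.09, against -1.18, -0.74 and -1.02. The difference of Rasgrf2 was -0.48 with normexp, and that of Pou3f3 was -0.68 without the AD pool, against -1.02. The 5 that did not pass had differences from -1.02 for Pou3f2 to 0.95 for Unc5d.

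Deep-layer genes were split. Of 18 fitted, 4 were higher and 4 lower in amygdala, with a median difference of 0.27 (3 higher and 1 lower without the RFR pool, 3 higher and 2 lower without the CR pool and with slide as a block, and a median of 0.09 with normexp). Foxp2, a forkhead factor of deep-layer neurons that intercalated and striatal neurons also express, measured 0.30, 0.04 and 0.45 in amygdala and -1.77, -2.33 and -1.64 in prefrontal cortex, 4.52-fold higher (adjusted p = 5.8e-05). Ntsr1, a neurotensin receptor, measured -0.32, -0.09 and -0.12 in amygdala and -1.75, -2.04 and -1.55 in prefrontal cortex, 3.03-fold higher (adjusted p = 0.00035). Fezf2, which specifies subcerebral projection neurons, measured -1.42, -1.62 and -1.79 in amygdala and -0.08, -0.12 and -0.10 in prefrontal cortex, 2.85-fold lower (adjusted p = 0.00019). Nr4a2 and Rprm were also higher, at 1.30 and 1.14, and Tbr1, Cplx3 and Garnl3 lower, at -1.16, -0.84 and -0.52. The calls of Rprm, Tbr1, Cplx3 and Garnl3 were lost without the RFR pool (adjusted p = 0.18, 0.18, 0.063 and 0.14), and that of Nr4a2 without the CR pool (adjusted p = 0.05). By the mean of its probes Cplx3 was at -0.51.

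Of 14 genes that mark forebrain glutamatergic neurons, 9 were lower in amygdala and 2 were higher, with a median difference of -0.75 (2 higher and 5 lower without the RFR pool and with slide as a block). The transcription factor Neurod6 measured -0.63, -0.84 and -0.88 in amygdala and 1.097, 1.23 and 1.07 in prefrontal cortex, 3.77-fold lower (adjusted p = 0.00014). Neurod2, a related factor, measured 3.04, 2.72 and 2.05 in amygdala and 4.24, 4.17 and 3.79 in prefrontal cortex, 2.75-fold lower (adjusted p = 0.00036). Emx1, a homeodomain factor of the dorsal forebrain, measured -1.06, -0.97 and -0.83 in amygdala and 0.55, 0.17 and 0.26 in prefrontal cortex, 2.44-fold lower (adjusted p = 0.00085), and Nfix, a nuclear factor I protein, was lower at -1.78. The 3 vesicular glutamate transporters went both ways. Slc17a7 (VGLUT1), the transporter of cortical neurons, measured 0.92, 0.64 and 0.93 in amygdala and 2.06, 2.03 and 2.05 in prefrontal cortex, 2.32-fold lower (adjusted p = 0.0071, and 0.12 without the RFR pool). Slc17a6 was the leading gene given above, and Slc17a8 (VGLUT3) differed by 1.58 ± 0.16 (adjusted p = 0.00085), though a second Slc17a8 probe had the opposite sign, at -0.81, and the mean of its probes gave 0.39.

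**Figure D3:**
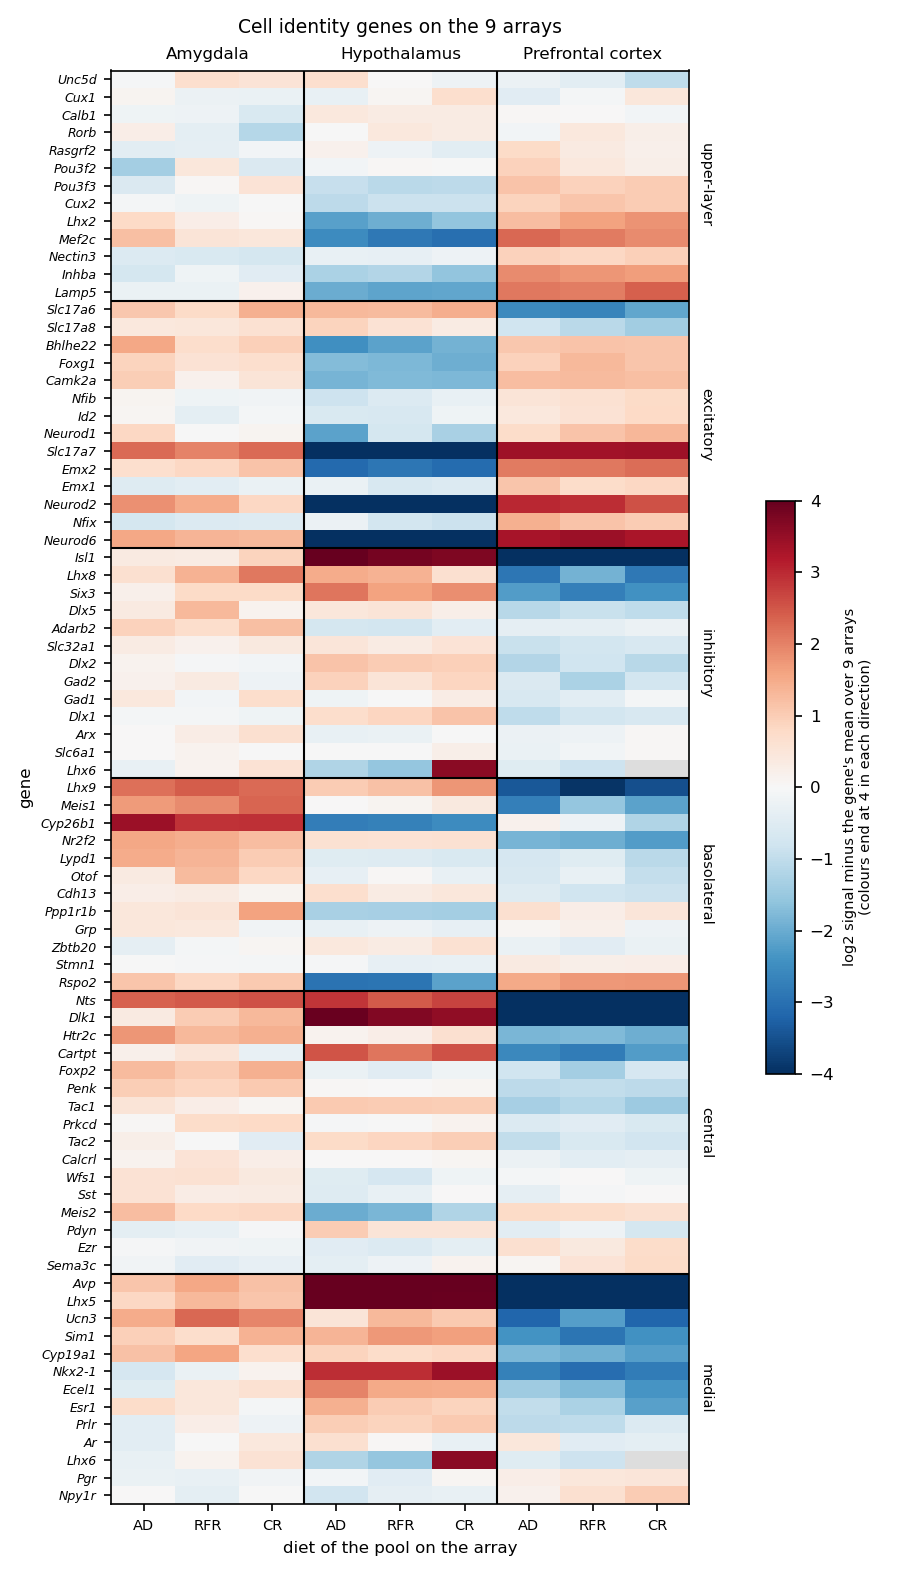
Log2 signal of each gene minus its mean over the 9 arrays, in colour, for fitted members of 6 lists (from the top: upper-layer cortex, excitatory identity, inhibitory identity, basolateral, central and intercalated, and medial amygdala) on the amygdala, hypothalamus and prefrontal cortex arrays, each in the order AD, RFR and CR. Red is above and blue below the mean, grey marks an array with no value, colours end at 4 units, and Lhx6, which is on more than 1 list, appears more than once. The upper-layer genes lower in amygdala are redder in prefrontal cortex, Cyp26b1 is reddest in amygdala, and Avp, Lhx5, Isl1 and Dlk1 are blue in prefrontal cortex, pale in amygdala and deep red in hypothalamus.

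Genes of the basolateral amygdala were mostly higher in amygdala: 7 of 12 fitted were higher and 2 lower, with a median difference of 1.21. Lhx9, Meis1, Cyp26b1 and Nr2f2 were well above background on all 3 amygdala arrays. Cyp26b1 and Nr2f2 were also so on the prefrontal cortex arrays, and Lhx9 and Meis1 on the hypothalamus arrays. Their detection alone therefore does not identify the tissue. Besides Lhx9, Cyp26b1 and Nr2f2, the higher genes included the homeodomain factor Meis1, at least 9.45-fold higher (adjusted p = 7.3e-05), and Lypd1, a modulator of nicotinic receptors, which measured 4.44, 4.32 and 3.97 in amygdala and 2.30, 2.47 and 1.88 in prefrontal cortex, 4.08-fold higher (adjusted p = 9.7e-05). Otof and Cdh13 were higher by 1.45 and 0.97 log2 units. Rspo2, a secreted enhancer of Wnt signalling, was lower in amygdala at -0.69 ± 0.19 (adjusted p = 0.04), and Stmn1 at -0.33 ± 0.10 (adjusted p = 0.048). Both calls were lost without the RFR pool (adjusted p = 0.27 and 0.22).

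Genes of the central nucleus and the intercalated cells showed the same direction in 11 of 16 fitted members, with 2 lower and a median of 0.88 (7 higher without the RFR pool). The median level of the list was 1.71 to 2.12 over amygdala arrays and -0.63 to -0.34 over prefrontal cortex arrays. Over hypothalamus arrays it was 1.56 to 1.99, a range that overlapped that of amygdala. Nts, the neurotensin precursor, measured 2.32, 2.42 and 2.52 in amygdala and -4.92, -5.66 and -4.94 in prefrontal cortex, where 2 of 3 arrays were well above background, a difference of 7.59 ± 0.17 (adjusted p = 3.5e-06). The array without detection already read above its detection floor. Setting it no lower than that floor could therefore not change the difference. Penk, the enkephalin precursor, measured 6.25, 6.12 and 6.31 in amygdala and 4.19, 4.28 and 4.22 in prefrontal cortex, 3.98-fold higher (adjusted p = 4.3e-05). Tac1, the precursor of substance P, measured 2.78, 2.55 and 2.35 in amygdala and 0.95, 1.15 and 0.83 in prefrontal cortex, 3.0-fold higher (adjusted p = 0.00022). Prkcd, protein kinase C delta, which marks a class of central nucleus neurons, measured -0.95, -0.28 and -0.21 in amygdala and -1.54, -1.45 and -1.62 in prefrontal cortex, 2.08-fold higher (adjusted p = 0.005, and 0.09 without the RFR pool). Foxp2, Dlk1, Htr2c, Cartpt, Tac2, Calcrl and Wfs1 were higher too. Without the RFR pool the adjusted p was 0.21 for Tac2, 0.14 for Calcrl and 0.14 for Wfs1. Ezr and Sema3c were lower, at -0.70 and -0.76, with adjusted p = 0.053 and 0.23 without the RFR pool, and Sema3c was at -0.46 with normexp. Sst, Meis2 and Pdyn did not pass the test, at 0.53, 0.24 and 0.21.

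Of 14 fitted genes of the medial amygdala, 9 were higher and 3 lower, with a median of 1.94 (but 0.65 with normexp). Of these 14, 7 were well above background on all 6 arrays. The median level of the list was -3.22 to -2.69 over amygdala arrays and -4.20 to -4.08 over prefrontal cortex arrays. Over hypothalamus arrays it was higher than in amygdala, at -2.53 to -2.05. Besides Avp and Lhx5, Ucn3, the peptide urocortin 3, was at least 8.08-fold higher in amygdala (adjusted p = 1.3e-05), and Cyp19a1, aromatase, which makes oestrogen from androgen, at least 4.28-fold higher (adjusted p = 8.8e-05, and 0.097 by the mean of all its probes). Esr1, the oestrogen receptor alpha, measured -1.82, -2.10 and -2.65 in amygdala and -3.54, -3.82 and -4.72 in prefrontal cortex, 3.57-fold higher (adjusted p = 0.00035). The log2 difference of Esr1 was 1.83, and 1.02 with normexp and 1.02 by the mean of its probes. Ecel1, a membrane peptidase, measured -1.07, -0.12 and 0.04 in amygdala and -2.01, -2.34 and -2.96 in prefrontal cortex (adjusted p = 0.008, and 0.11 without the RFR pool). Npy1r and the progesterone receptor gene Pgr were among the lower genes. Pgr was at -0.62 ± 0.13 (adjusted p = 0.014, and 0.093 without the RFR pool), and Npy1r at -0.74 ± 0.19 (adjusted p = 0.036, and 0.25 without the RFR pool). Sim1, Nkx2-1 and Prlr completed the 9 that were higher, the call of Nkx2-1 being lost with normexp (adjusted p = 0.07) and that of Prlr without the RFR pool (adjusted p = 0.18).

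Genes of GABAergic neurons were higher in amygdala in 11 of 13 fitted members and lower in none, with a median of 1.03. The median level of the list was -0.70 to -0.38 over amygdala arrays and -1.23 to -0.91 over prefrontal cortex arrays. Over hypothalamus arrays it was higher than in amygdala, at 0.51 to 0.73. The vesicular GABA transporter Slc32a1 measured 6.65, 6.49 and 6.69 in amygdala and 5.42, 5.58 and 5.67 in prefrontal cortex, 2.08-fold higher (adjusted p = 0.00063). The 2 GABA-synthesising enzymes were higher as well: Gad2 measured 2.15, 2.33 and 1.80 in amygdala and 1.40, 0.71 and 1.24 in prefrontal cortex (adjusted p = 0.016, and 0.086 without the RFR pool), and Gad1 3.46, 2.94 and 3.76 in amygdala and 2.42, 2.63 and 2.97 in prefrontal cortex (adjusted p = 0.019, and 0.12 without the CR pool), where the CR prefrontal cortex and RFR amygdala arrays overlapped. The LIM homeodomain factor Isl1 was at least 7.47-fold higher (adjusted p = 1.3e-05), Lhx8 at least 4.53-fold and Six3 at least 2.09-fold. With normexp their log2 differences were 1.61, 1.25 and 0.59, each smaller than its bound on that scale. Dlx5, a homeodomain factor of GABAergic neurons, measured -1.95, -1.02 and -2.19 in amygdala and -3.42, -3.20 and -3.32 in prefrontal cortex, 3.02-fold higher (adjusted p = 0.0023).

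Markers of striatal projection neurons were higher in 11 of 16 fitted members and lower in 1, with a median of 1.20 (but 0.67 with normexp). Drd1, the dopamine D1 receptor, measured 0.24, -0.22 and 0.07 in amygdala and -2.12, -2.19 and -2.41 in prefrontal cortex, 4.82-fold higher (adjusted p = 0.00021). Rgs9, a regulator of G protein signalling in striatal neurons, measured 0.29, 0.19 and 0.60 in amygdala and -1.63, -1.55 and -1.65 in prefrontal cortex, 3.91-fold higher (adjusted p = 0.00021). Foxp1, a forkhead factor, was the 1 gene lower, at -0.82, -0.88 and -0.68 in amygdala and 1.15, 0.64 and 1.12 in prefrontal cortex (adjusted p = 0.00019). Whether tissue of the neighbouring striatum had a part in these differences was not tested.

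Markers of cortical interneuron classes moved both ways: 5 of 14 fitted were higher in amygdala and 5 lower, with a median of -0.26 (3 higher and 4 lower without the RFR pool and without the CR pool, and 3 higher and 2 lower with slide as a block). Higher were the calcium-binding protein calretinin (Calb2), Nos1, Tac1, Ndnf and Reln. Without the RFR pool the adjusted p was 0.14 for Ndnf and 0.069 for Reln. Calb2 measured 0.11, 0.95 and 1.11 in amygdala and -1.40, -2.40 and -2.08 in prefrontal cortex, 6.41-fold higher (adjusted p = 0.0018), and Nos1, neuronal nitric oxide synthase, was at least 3.84-fold higher (adjusted p = 0.0006). Lower were Pvalb, given above, Htr3a, Vip, Npy and Cck. Vip, vasoactive intestinal peptide, measured 0.05, -0.57 and -0.51 in amygdala and 1.15, 1.37 and 1.26 in prefrontal cortex, 3.03-fold lower (adjusted p = 0.0016, and 0.057 with slide as a block). The ionotropic serotonin receptor gene Htr3a measured -1.12, -1.87 and -1.47 in amygdala and 0.43, -0.21 and 0.54 in prefrontal cortex, 3.35-fold lower (adjusted p = 0.0045, and 0.053 without the CR pool).

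**Figure D4:**
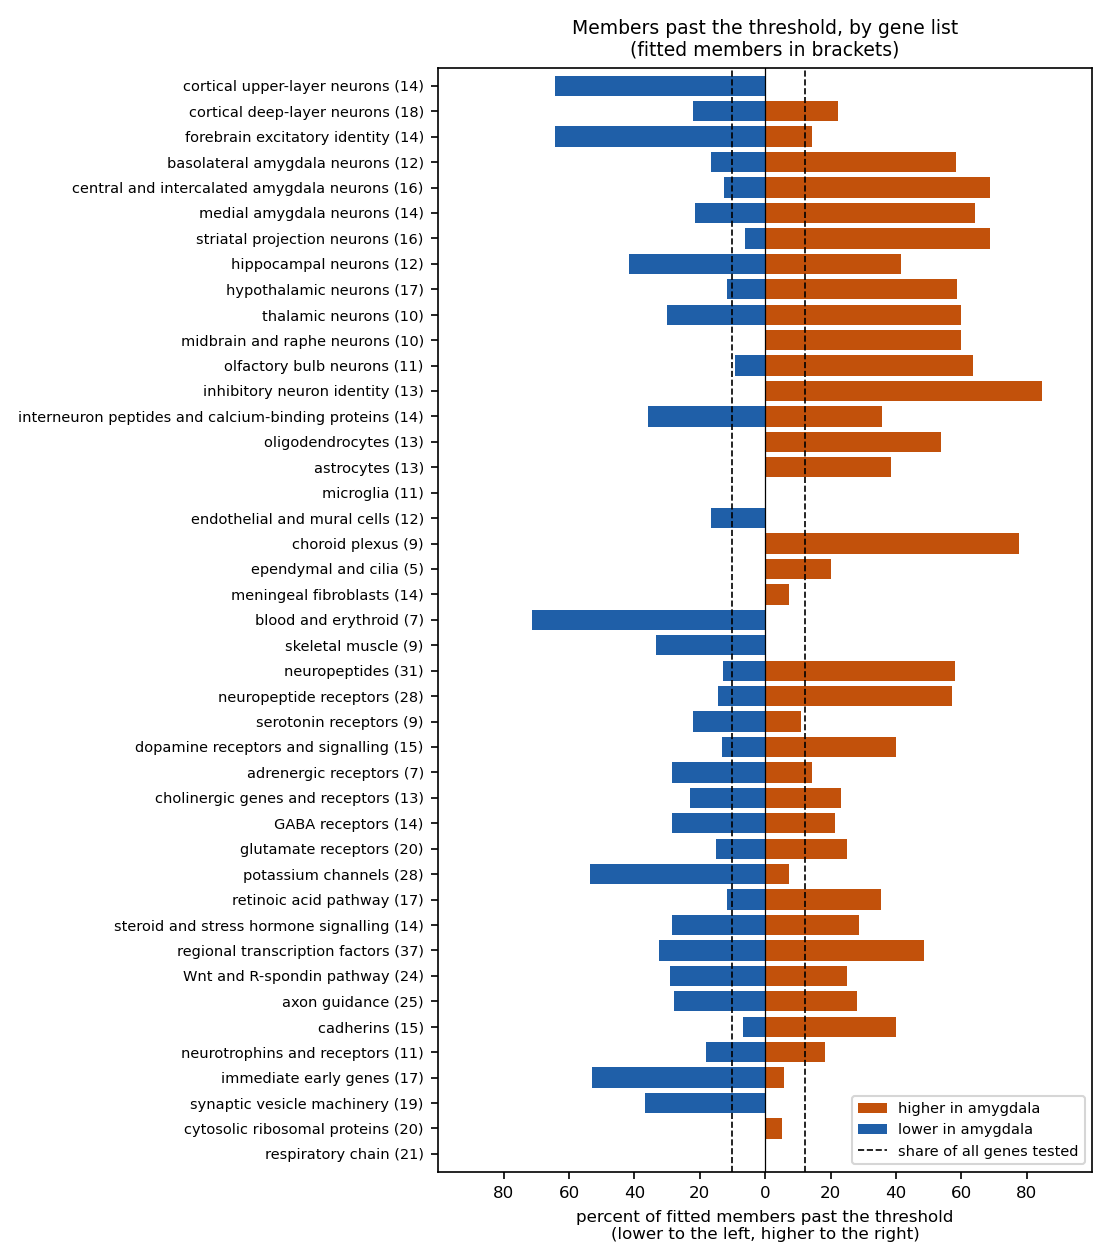
Percent of the fitted members of each of 43 gene lists that were higher (orange, to the right) or lower (blue, to the left) in amygdala than in prefrontal cortex. Dashed lines mark the shares of all genes tested, 12.1% higher and 10.2% lower; the upper-layer, excitatory, blood, potassium channel and immediate early lists reach far to the left, and the inhibitory, striatal, amygdala and choroid plexus lists far to the right.

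Some lists had no gene called in a direction. By an unadjusted limma p under 0.05 in that direction, there was 1 such member on the upper-layer list (higher) and 1 each on the midbrain, astrocyte, ependymal and microglial lists (lower), and 0 on the others.

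Several markers of tissue beside the amygdala moved with these genes. Of 17 fitted genes of hypothalamic neurons, 10 were higher in amygdala than in prefrontal cortex and 2 lower, with a median of 2.01 (but 0.81 with normexp). The median level of this list was -2.42 to -1.62 over amygdala arrays, 1.99 to 2.38 over hypothalamus arrays and -4.43 to -3.99 over prefrontal cortex arrays. Hcrt and Pmch, the precursors of orexin and melanin-concentrating hormone, are made by neurons of the lateral hypothalamus. Hcrt measured -2.14, -0.88 and -1.67 in amygdala and -3.41, -3.50 and -3.07 in prefrontal cortex, a difference of 1.76 ± 0.30 (adjusted p = 0.0067, and 0.085 with slide as a block), with the RFR array highest in amygdala. Pmch measured -3.43, -1.61 and -1.93 in amygdala and -4.78, -4.63 and -3.69 in prefrontal cortex, a difference of 2.04 ± 0.35 (adjusted p = 0.0069, and 0.12 with slide as a block), again with the RFR amygdala array highest. With normexp the differences were 1.17 for Hcrt and 1.03 for Pmch. Relative to hypothalamus, amygdala was at -8.47 for Hcrt, -8.19 for Pmch, -5.99 for Oxt and -3.06 for Avp on the log2 scale (adjusted p at most 3.3e-05). Hmx3, a member of the list that was named after its value was seen, was not well above background on any amygdala array. It is a single member, and 10 of the 17 fitted members were higher in amygdala than in prefrontal cortex. The part of hypothalamic tissue in these differences was not tested.

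Choroid plexus genes, made by the epithelium of the ventricles, were higher in 7 of 9 fitted members and lower in none, with a median of 2.83 (4 higher with slide as a block, and a median of 0.78 with normexp). Clic6, an intracellular chloride channel protein, measured 1.06, 1.49 and 1.26 in amygdala and -3.99, -3.51 and -4.33 in prefrontal cortex, 37.0-fold higher (adjusted p = 1.5e-05). The defining marker Ttr, transthyretin, measured -3.47, -1.66 and -3.95 in amygdala, with the RFR array well above the others, and was not well above background on any prefrontal cortex array (at least 5.07-fold higher, adjusted p = 0.0031). Kcne2 and Calml4 were also highest on the RFR array among amygdala arrays, and the call of Calml4 was lost with normexp (adjusted p = 0.094) and that of Kcne2 with slide as a block (adjusted p = 0.08). The list's median level was -3.62 to -1.89 over amygdala arrays and -4.90 to -4.62 over prefrontal cortex arrays. Whether choroid plexus RNA had a part in genes such as Clic6 and Sostdc1 was not tested. Of 5 fitted ependymal genes 1 was higher, Hydin (adjusted p = 0.0029, and 0.063 with normexp), and of 14 genes of meningeal fibroblasts 1, Dcn (adjusted p = 0.011, and 0.12 without the RFR pool).

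For thalamic neurons 6 of 10 fitted markers were higher and 3 lower (median 0.73, and 3 higher and 1 lower without the RFR pool, 3 higher and 2 lower with slide as a block, and a median of 0.35 with normexp), for the hippocampus 5 of 12 higher and 5 lower (median 0.22, and 1 higher and 2 lower without the RFR pool, 3 higher and 4 lower without the CR pool, 2 higher and 2 lower with slide as a block, 3 higher and 5 lower with normexp and with median centring, and a median of -0.17 without the CR pool, 0.43 without the AD pool, -0.10 with slide as a block and 0.07 with normexp), and for the olfactory bulb 7 of 11 higher and 1 lower (median 1.68, and 5 higher without the RFR pool and with slide as a block, and a median of 0.55 with normexp). Tcf7l2, a Wnt effector of thalamic neurons, measured -0.53, -0.72 and -0.54 in amygdala and -1.86, -1.33 and -1.42 in prefrontal cortex (adjusted p = 0.0044), while Ramp3, a partner of calcitonin-family receptors, measured -0.79, -0.73 and -1.05 in amygdala and 1.71, 1.52 and 1.57 in prefrontal cortex, 5.47-fold lower (adjusted p = 6.8e-05). Npy2r, a neuropeptide Y receptor strong in hippocampus, measured -0.71, -1.04 and -0.15 in amygdala and -5.59, -5.05 and -4.86 in prefrontal cortex, where 2 of 3 arrays were well above background (adjusted p = 1.8e-05), a log2 difference of 4.53, and 2.70 with normexp. Dkk3, a secreted protein of the Dickkopf family, measured -0.01, 0.37 and 1.11 in amygdala and 2.79, 2.44 and 2.64 in prefrontal cortex, 4.4-fold lower (adjusted p = 0.00087). Of 10 fitted midbrain and raphe genes, 6 were higher in amygdala and none lower. Slc6a3, the dopamine transporter, was not well above background on any prefrontal cortex array, and En1, Gata3, Lmx1b and Slc6a4 did not reach the detection filter on enough arrays to be fitted.

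Blood markers moved the other way. Of 7 fitted, 5 were lower in amygdala and none higher, with a median of -1.23 (2 lower without the RFR pool and with slide as a block, and 3 lower without the CR pool). The haemoglobin gene Hbb-bt measured 2.76, 1.75 and 2.92 in amygdala and 3.82, 3.31 and 4.18 in prefrontal cortex (adjusted p = 0.0068), with the RFR amygdala array the lowest. S100a9, a protein of neutrophils, measured -2.64, -2.52 and -2.22 in amygdala and 1.03, -0.52 and -0.18 in prefrontal cortex, 5.94-fold lower (adjusted p = 0.0019). The call of Hbb-bt was lost with slide as a block (adjusted p = 0.076) and without the diet term. The part of residual blood in other genes lower in amygdala was not tested.

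Neuropeptide precursors were higher in amygdala in 18 of 31 fitted members and lower in 4, with a median of 1.04 (but 0.66 with normexp). Besides Nts, Avp, Ucn3 and Oxt, the list included Cartpt, the precursor of the satiety peptide CART, which measured 1.999, 2.28 and 1.48 in amygdala and -0.80, -1.01 and -0.44 in prefrontal cortex, 6.35-fold higher (adjusted p = 0.00056). The hypothalamic peptides described above are members as well. Kiss1, the kisspeptin precursor, was lower, at -2.80, -2.70 and -3.35 in amygdala and -0.39, -0.66 and -1.13 in prefrontal cortex, 4.68-fold (adjusted p = 0.00028). Npy, neuropeptide Y of cortical interneurons, measured 2.25, 2.02 and 1.75 in amygdala and 3.34, 3.24 and 3.37 in prefrontal cortex, 2.47-fold lower (adjusted p = 0.0017). Cck, cholecystokinin, measured 6.22, 5.82 and 5.61 in amygdala and 6.91, 7.01 and 6.90 in prefrontal cortex, 2.08-fold lower (adjusted p = 0.0048, and 0.1 without the RFR pool). The 9 that did not pass were Ucn, Pomc, Sst, Agrp, Grp, Pdyn, Adcyap1, Nmu and Cort, from -0.53 to 0.81.

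Many neuropeptide genes are controlled by cyclic AMP through the response element CRE, so their promoters were searched for its full palindrome, TGACGTCA, which reads the same on both strands. The search covered 250 bases before to 50 after each gene's start in RefSeq (GRCm38.p6), with 28 of the 31 peptides in that table. The element stood in 4 of the 28 windows (14.3%), against 549 of 27025 genes in the table (2.03%), 331 of 10091 genes tested (3.28%), 32 of 1181 called higher (2.71%) and 39 of 995 called lower (3.92%). Among called peptides, the windows of Cartpt and Scg2 held it, 112 and 68 bases before the start. Sst and Ucn, whose differences did not pass the test, held it as well. The 2 windows are shown because their genes were both higher in amygdala, with the element in capitals; Scg2, the granin secretogranin II, measured 2.71, 3.33 and 3.14 in amygdala and 1.80, 1.63 and 1.70 in prefrontal cortex (adjusted p = 0.0021, and 0.054 without the RFR pool). A match to these letters is a description of the sequence.
Cartpt, chr13:99900634-99900933, minus strand: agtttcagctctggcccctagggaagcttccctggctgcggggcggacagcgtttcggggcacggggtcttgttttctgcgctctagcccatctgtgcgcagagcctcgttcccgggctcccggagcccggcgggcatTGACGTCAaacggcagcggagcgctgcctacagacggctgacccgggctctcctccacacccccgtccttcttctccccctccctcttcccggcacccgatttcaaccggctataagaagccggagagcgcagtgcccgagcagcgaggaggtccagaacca
Scg2, chr1:79439977-79440276, minus strand: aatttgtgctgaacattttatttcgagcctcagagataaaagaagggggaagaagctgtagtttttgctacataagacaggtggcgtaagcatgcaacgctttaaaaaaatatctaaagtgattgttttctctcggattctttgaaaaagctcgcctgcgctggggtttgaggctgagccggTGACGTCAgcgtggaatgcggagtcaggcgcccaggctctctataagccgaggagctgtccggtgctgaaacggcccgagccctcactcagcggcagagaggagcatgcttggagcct

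Of 28 fitted receptors for neuropeptides, 16 were higher in amygdala and 4 lower, with a median of 0.65 (10 higher without the RFR pool, 11 higher and 1 lower with slide as a block, and a median of 0.38 with normexp). Crhr2, the receptor of urocortins, measured 0.82, 1.27 and 0.38 in amygdala and -2.05, -2.02 and -2.53 in prefrontal cortex, 8.14-fold higher (adjusted p = 7.1e-05), whereas Crhr1, the receptor of corticotropin-releasing hormone, measured 1.85, 2.16 and 1.58 in amygdala and 2.59, 3.07 and 2.64 in prefrontal cortex, 1.87-fold lower (adjusted p = 0.0045, and 0.063 without the RFR pool). Trhr, the receptor of thyrotropin-releasing hormone, measured -0.85, -0.76 and -1.14 in amygdala and -4.36, -3.99 and -4.50 in prefrontal cortex, 10.3-fold higher (adjusted p = 4e-05, and a log2 difference of 2.16 with normexp, against 3.37). The tachykinin receptor gene Tacr3 was at least 10.1-fold higher (adjusted p = 1.3e-05), though 2.38 log2 units by the mean of its probes, and Tacr1, the substance P receptor, measured -0.84, -0.99 and -0.06 in amygdala and -5.51, -5.62 and -6.53 in prefrontal cortex, where 1 of 3 arrays was well above background (adjusted p = 0.00012). The log2 difference of Tacr1 was 5.25, and 2.98 with normexp and 2.84 by the mean of its probes. The cholecystokinin receptors went both ways. Cckar was at least 2.75-fold higher (adjusted p = 8.5e-05), and Cckbr measured 1.66, 1.49 and 1.28 in amygdala and 2.42, 2.86 and 2.90 in prefrontal cortex, 2.38-fold lower (adjusted p = 0.0045, and 0.093 without the RFR pool). Npy1r, given above, and Sstr4 were also lower, Sstr4 at -1.11 ± 0.15 (adjusted p = 0.0024, and 0.069 without the RFR pool), or -0.56 by the mean of its probes. A further 13 receptor genes did not reach the detection filter.

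**Figure D5:**
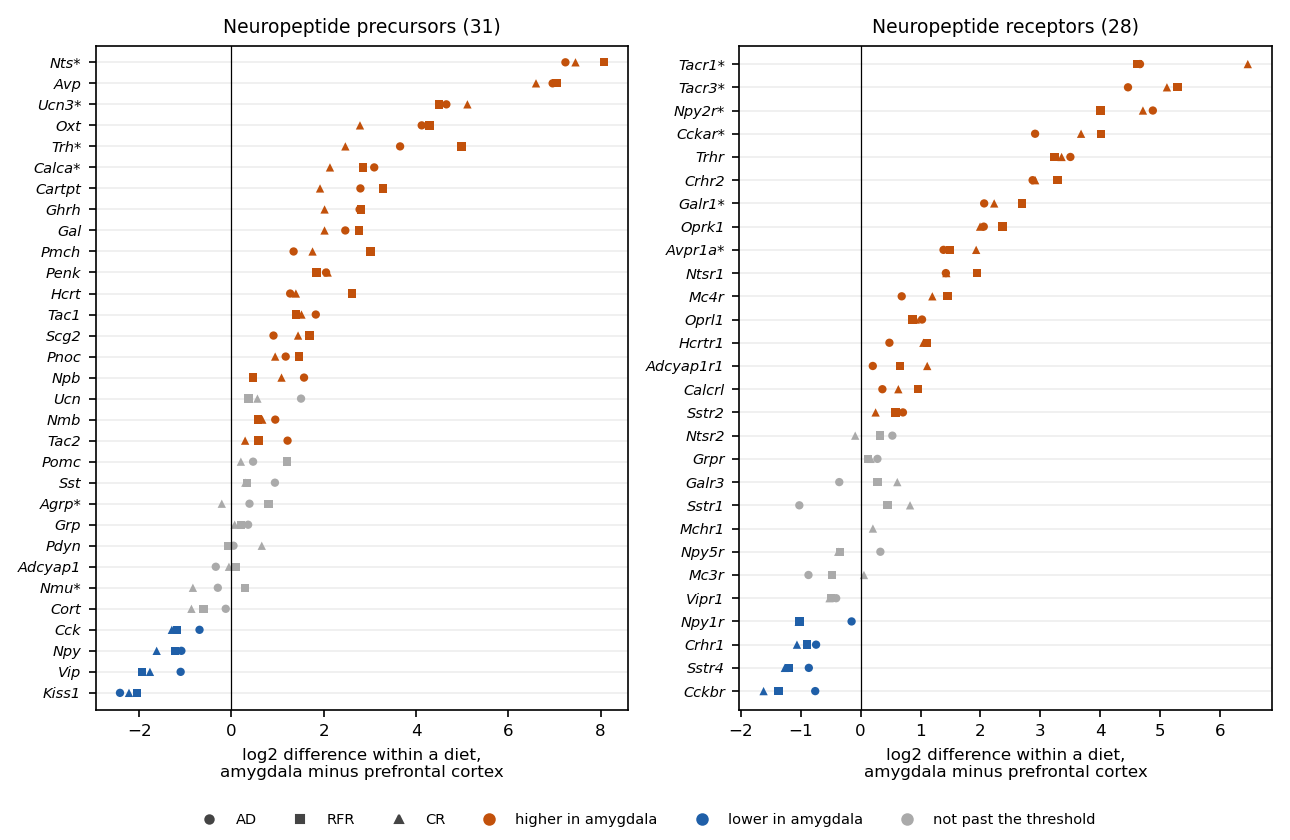
Log2 difference between amygdala and prefrontal cortex within each diet (circle AD, square RFR, triangle CR) for 31 neuropeptide precursors and 28 receptors. Orange genes were higher in amygdala, blue lower and grey did not pass the test, and an asterisk marks genes that were not well above background on at least 1 of the 6 arrays; every orange gene has its 3 marks to the right of 0 and every blue gene to the left.

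Receptors of the monoamines differed by subtype. Of 9 fitted serotonin receptors, Htr2c was higher in amygdala, at 1.65, 1.17 and 1.31, against -1.94, -1.88 and -2.08 in prefrontal cortex, 10.1-fold (adjusted p = 6.3e-05). Htr3a, given above, and Htr2a were lower, the second at -1.53 ± 0.27 (-0.54 with normexp), a gene that reached the filter only through prefrontal cortex arrays. The median of this list, 0.01, changed sign to -0.12 with median centring and -0.14 with quantile scaling. Of 15 fitted genes of dopamine receptors and signalling, 6 were higher and 2 lower, with a median of 0.40 (but 0.25 without the CR pool, 0.69 without the AD pool and 0.20 with slide as a block). Drd1 and Drd2 were higher as given above, while Drd5 measured -3.91, -3.72 and -3.40 in amygdala and -2.62, -2.95 and -2.67 in prefrontal cortex, lower by a difference of -0.93 ± 0.13 (adjusted p = 0.0032, and 0.052 without the RFR pool), or -0.53 with normexp. Of 7 fitted adrenergic receptors, Adra2a measured 2.19, 2.49 and 2.32 in amygdala and 0.94, 0.73 and 0.54 in prefrontal cortex, 3.02-fold higher (adjusted p = 0.00035), and Adra1b 1.46, 1.45 and 1.07 in amygdala and 3.75, 3.79 and 3.67 in prefrontal cortex, 5.33-fold lower (adjusted p = 2.9e-05). Adra1d was lower as well (adjusted p = 0.014, and 0.17 without the RFR pool), and the median of the list was -0.28 (but -0.51 without the CR pool, -0.09 without the AD pool, -0.48 with slide as a block and -0.45 with quantile scaling).

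Of 13 fitted cholinergic genes, 3 were higher and 3 lower (median -0.13, and 2 higher and 1 lower without the RFR pool, and a median of 0.02 without the RFR pool and -0.29 with quantile scaling). The choline transporter gene Slc5a7 was at least 4.94-fold higher in amygdala (adjusted p = 0.0021). It measured -3.77, -3.34 and -2.07 there, with the CR array highest. The muscarinic receptor gene Chrm3 measured -4.06, -3.10 and -2.87 in amygdala and -1.37, -1.90 and -1.72 in prefrontal cortex, 3.2-fold lower (adjusted p = 0.0088, and 0.076 without the RFR pool), a log2 difference of -1.68, and -1.09 with normexp.

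Subunits of GABA receptors also differed in both directions, with 3 of 14 fitted higher, 4 lower and a median of -0.15 (1 higher and 1 lower without the RFR pool and with slide as a block, 2 higher and 1 lower without the CR pool, and a median of 0.01 with slide as a block). Gabrd, the delta subunit of extrasynaptic receptors, measured 2.71, 2.05 and 2.06 in amygdala and 4.21, 4.14 and 4.31 in prefrontal cortex, 3.86-fold lower (adjusted p = 0.00043). Gabrg1, the gamma 1 subunit, measured 2.64, 2.65 and 2.51 in amygdala and 1.13, 1.17 and 0.94 in prefrontal cortex, 2.87-fold higher (adjusted p = 0.00018). Of 20 fitted glutamate receptor genes, 5 were higher and 3 lower, and their median of 0.01 (1 higher without the RFR pool, 3 higher and 3 lower without the CR pool, 2 higher with slide as a block, and 3 higher and 4 lower with median centring) turned negative under both other scalings. Grik1, a kainate receptor subunit, measured 0.65, 0.98 and 0.44 in amygdala and -1.15, -0.69 and -1.05 in prefrontal cortex, 3.15-fold higher (adjusted p = 9.7e-05).

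Potassium channel genes were mostly lower in amygdala: 15 of 28 fitted were lower and 2 higher, with a median of -0.56 (1 higher and 4 lower without the RFR pool). Kcnq5, a subunit of the M-current channels, measured -4.55, -4.35 and -3.95 in amygdala and -2.13, -2.56 and -2.34 in prefrontal cortex, 3.83-fold lower (adjusted p = 0.00064), or -1.94 on the log2 scale, and -1.12 with normexp. Kcns1, a modifier subunit, measured -2.59, -1.88 and -1.84 in amygdala and -0.75, -0.85 and -0.58 in prefrontal cortex, 2.6-fold lower (adjusted p = 0.0018). Kcnh3, a channel of the ether-a-go-go family, measured -1.24, -0.98 and -0.66 in amygdala and 0.32, 0.12 and 0.32 in prefrontal cortex, 2.32-fold lower (adjusted p = 0.0033, and 0.061 without the RFR pool). Of 19 fitted genes of synaptic vesicle release, 7 were lower and none higher, with a median of -0.47 (3 lower without the RFR pool, and 4 lower without the CR pool). Stx1a, syntaxin 1A of the release complex, measured 1.81, 1.76 and 1.70 in amygdala and 3.28, 3.35 and 3.33 in prefrontal cortex, 2.95-fold lower (adjusted p = 8.8e-05), and Cplx1, complexin 1, 4.26, 3.93 and 4.42 in amygdala and 5.08, 5.002 and 5.44 in prefrontal cortex, 1.96-fold lower (adjusted p = 0.00099).

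Immediate early genes, which neurons switch on with activity, were lower in amygdala in 9 of 17 fitted members and higher in 1, with a median of -0.83 (1 higher and 3 lower without the RFR pool, 6 lower without the CR pool, 4 lower with slide as a block, and a median of -0.41 with slide as a block). Arc, which acts at synapses, measured 3.93, 3.70 and 3.74 in amygdala and 5.72, 5.70 and 5.07 in prefrontal cortex, 3.28-fold lower (adjusted p = 0.00036). Npas4, an activity-dependent transcription factor, measured -2.02, -0.75 and -1.53 in amygdala and -0.43, 0.17 and 0.23 in prefrontal cortex, 2.69-fold lower (adjusted p = 0.0021), with the RFR array highest in amygdala. Fos did not pass, at 0.29, -0.05 and -0.20 in amygdala and -0.13, 0.24 and 0.13 in prefrontal cortex, a difference of -0.06 ± 0.18 (adjusted p = 0.84). Nr4a2, an orphan nuclear receptor, was the 1 gene higher. Mice were under ether when killed, which the groups share.

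Of 37 fitted regional transcription factors, 18 were higher and 12 lower, with a median of 0.66 (but 0.42 with normexp). There were 16 higher and 7 lower without the RFR pool, and 17 higher and 7 lower with slide as a block. Mab21l1, which reached the filter only through amygdala arrays, was at least 7.0-fold higher there, and Pbx3, a homeodomain cofactor, measured 1.55, 1.76 and 1.65 in amygdala and -1.38, -1.22 and -1.32 in prefrontal cortex, 7.77-fold higher (adjusted p = 1.8e-05). In the retinoic acid pathway, 6 of 17 fitted genes were higher and 2 lower (median 0.27, and 4 higher and 1 lower without the AD pool, and a median of 0.42 without the RFR pool, 0.08 without the AD pool, 0.47 with slide as a block and 0.06 with normexp). Besides Cyp26b1, the binding protein Crabp1 was at least 5.52-fold higher (adjusted p = 3.4e-05). The related enzyme Cyp26a1 had a bound of 3.61-fold, but it reached the filter only through amygdala arrays, and no test is given. Rxrg, a retinoid X receptor, measured 3.74, 4.01 and 3.67 in amygdala and 1.50, 1.69 and 0.62 in prefrontal cortex, 5.81-fold higher (adjusted p = 0.00032), and Rbp4, a retinol carrier, 1.68, 1.25 and 1.25 in amygdala and 3.20, 3.31 and 3.10 in prefrontal cortex, 3.5-fold lower (adjusted p = 0.0002).

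Of 14 fitted genes of steroid and stress hormone signalling, 4 were higher and 4 lower (median 0.22, and 4 higher and 1 lower without the RFR pool and with slide as a block, and a median of -0.04 without the CR pool and -0.07 with slide as a block). Hsd11b1, which regenerates active glucocorticoid, measured 0.60, -0.05 and 0.21 in amygdala and 1.43, 1.24 and 1.52 in prefrontal cortex, 2.21-fold lower (adjusted p = 0.00098). The glucocorticoid receptor gene Nr3c1 was lower as well, at -0.52 ± 0.11 (adjusted p = 0.017, and 0.15 without the RFR pool).

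In the Wnt and R-spondin pathway, 6 of 24 fitted genes were higher and 7 lower, with a median of -0.09 (2 higher and 5 lower without the RFR pool, 2 higher and 6 lower with slide as a block, and a median of -0.27 without the CR pool and -0.25 with quantile scaling). Besides Wnt10a, the ligand gene Wnt9a measured -0.34, -0.82 and -1.11 in amygdala and 1.33, 1.21 and 1.32 in prefrontal cortex, 4.12-fold lower (adjusted p = 0.00027), and the secreted antagonist Sfrp2 -1.23, -0.99 and -1.56 in amygdala and -2.54, -2.53 and -2.74 in prefrontal cortex, 2.54-fold higher (adjusted p = 0.00037). Of 25 fitted axon guidance genes, 7 were higher and 7 lower (median -0.05, and 3 higher and 4 lower without the RFR pool, 4 higher and 5 lower without the CR pool, 4 higher and 4 lower with slide as a block, and a median of 0.11 without the RFR pool and 0.22 with slide as a block). Ephrin Efnb3 measured 3.35, 3.57 and 3.66 in amygdala and 1.67, 1.42 and 1.51 in prefrontal cortex, 3.99-fold higher (adjusted p = 0.00014), while Sema7a, a membrane-anchored semaphorin, measured 3.24, 3.02 and 2.85 in amygdala and 5.22, 5.13 and 5.30 in prefrontal cortex, 4.54-fold lower (adjusted p = 6.6e-05). Of 15 fitted cadherins, 6 were higher and 1 lower (median 0.16, and 2 higher and 1 lower without the RFR pool, and 3 higher and 2 lower with slide as a block), with Pcdh8 at 1.43 ± 0.17 and Cdh12 at -2.25 ± 0.17 (adjusted p = 0.0015 and 0.00025), the second at -1.25 with normexp. Of 11 fitted neurotrophins and receptors, 2 were higher and 2 lower (median 0.23, but 0.07 without the AD pool, -0.01 with slide as a block and 0.04 with normexp). Ngfr, the p75 neurotrophin receptor, measured -1.31, -0.41 and 0.22 in amygdala and -2.84, -3.001 and -2.94 in prefrontal cortex, 5.37-fold higher (adjusted p = 0.0019, and 0.061 without the RFR pool).

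Myelin and astrocyte genes were higher in part. Of 13 fitted oligodendrocyte genes, 7 were higher in amygdala and none lower, with a median of 0.48 (1 higher without the RFR pool and with slide as a block, 2 higher without the CR pool, and 3 higher with median centring). Aspa, aspartoacylase, measured 0.40, -0.05 and 0.69 in amygdala and -0.48, -0.69 and -0.20 in prefrontal cortex, 1.74-fold higher (adjusted p = 0.0019). Of 13 fitted astrocyte genes, 5 were higher and none lower, with a median of 0.27 (2 higher without the RFR pool, without the CR pool and with slide as a block, and a median of 0.03 without the RFR pool). After Agt, the largest was Itih3, which measured 3.05, 3.40 and 3.55 in amygdala and 1.54, 1.86 and 1.98 in prefrontal cortex, 2.91-fold higher (adjusted p = 0.00057). None of 11 fitted microglial genes passed the limma test (median -0.16), and 1 of them had an unadjusted p under 0.05. Of 12 genes of endothelial and mural cells, none was higher and 2 were lower, Flt1 and Kcnj8 (median -0.26), with adjusted p = 0.32 and 0.23 without the RFR pool. Among housekeeping genes, 1 of 20 cytosolic ribosomal protein genes was higher, Rpl3, at 0.39 ± 0.09 (adjusted p = 0.027, and 0.25 without the RFR pool), and none of 21 respiratory chain genes passed, 0 of which had an unadjusted p under 0.05 in limma (medians 0.08 and -0.20). The ribosomal median changed sign to -0.05 with median centring.

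The hypothalamus arrays placed these differences among 3 regions. Amygdala differed from hypothalamus in 3717 genes (29.4%), and hypothalamus from prefrontal cortex in 6055 (48.0%). Without the RFR pool the counts were 1429 and 3494, and without the CR pool the first was 2237. These comparisons share arrays with that of amygdala and prefrontal cortex, so their values are given side by side. Cyp26b1 was higher in amygdala than in both other regions, with amygdala minus hypothalamus at 5.75 (adjusted p = 4e-05). Drd1 was also higher than in both, at 2.71 against hypothalamus (adjusted p = 9.2e-05). Myo5b, an unconventional myosin of vesicle recycling, measured 1.48, 1.31 and 1.39 in amygdala and -0.35, -0.40 and -0.76 in prefrontal cortex, 3.72-fold higher (adjusted p = 8.8e-05), and differed from hypothalamus by 4.14 (adjusted p = 6.3e-06). Cnn1, calponin of smooth muscle, measured 0.23, -0.10 and 0.43 in amygdala and -1.47, -1.82 and -1.92 in prefrontal cortex, 3.79-fold higher (adjusted p = 0.00051), and differed from hypothalamus by 2.21 (adjusted p = 0.00025). Slc6a12, a betaine and GABA transporter, was the fifth of those named, at 2.44 ± 0.46 against prefrontal cortex (adjusted p = 0.01, and 0.13 without the RFR pool).

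Lower in amygdala than in both other regions were Efna5, Onecut2, Tmem114, Krt8 and 4930447C04Rik. Efna5, an ephrin ligand, measured 1.23, 1.00 and 0.93 in amygdala and 2.25, 2.40 and 2.59 in prefrontal cortex, 2.57-fold lower (adjusted p = 0.00061, and a log2 difference of -0.90 by the mean of its probes, against -1.36), and was -1.35 against hypothalamus (adjusted p = 0.00053). Onecut2, a transcription factor, measured -1.96, -1.83 and -1.98 in amygdala and -0.55, -0.46 and -0.43 in prefrontal cortex, 2.71-fold lower (adjusted p = 0.00015), and was -3.77 against hypothalamus (adjusted p = 6.3e-06). Krt8, a keratin, was lower at -1.89 ± 0.22 by the probe used and 0.09 with its probes averaged, a reversal with adjusted p = 0.89. Tmem114 and 4930447C04Rik were at -1.27 and -1.44, the second with an adjusted p of 0.092 without the RFR pool. Slc17a6 and Trhr were higher than in prefrontal cortex in both amygdala and hypothalamus, with amygdala minus hypothalamus at -0.26 and 0.13 and hypothalamus minus prefrontal cortex at 3.77 and 3.24. For both genes the difference from hypothalamus did not pass the test (adjusted p = 0.15 and 0.58).

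Within each diet the regions were compared without a test, since each has 1 array. Among genes well above background on both arrays, 1016 of 11825 (8.59%) differed by 2-fold or more on the AD arrays, 908 of 11887 (7.64%) on the RFR arrays and 1043 of 11912 (8.76%) on the CR arrays. Over genes, the differences in RFR and CR had a Pearson correlation of 0.81 (11549 genes), those in AD and RFR 0.674 (11555 genes) and those in AD and CR 0.551 (11614 genes). These correlations are over genes of single arrays, which share their scaling, and are given as a description. Among called genes, those well above background on all 6 arrays whose difference varied most between diets included Calb2, Cdh4, Drd4 and Ecel1. Drd4, the dopamine D4 receptor, measured -1.82, -4.48 and -3.97 in amygdala and -1.72, -1.65 and -1.51 in prefrontal cortex, with differences of -0.10, -2.83 and -2.46. The AD amygdala array was close to prefrontal cortex and the other amygdala arrays lay far below it, and the call (adjusted p = 0.046) was lost without the RFR pool (adjusted p = 0.32). Cdh4, a cadherin, had differences of 0.17, 1.51 and 2.23, the smallest again on the AD arrays (adjusted p = 0.033, and 0.25 without the RFR pool). Calb2 had differences of 1.51, 3.35 and 3.18. Ecel1, given above, had differences of 0.94, 2.22 and 2.997. With 1 array for each region and diet, a difference between diets cannot be told apart from error of single arrays.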

How the data were processed

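RNA of amygdala, hypothalamus and prefrontal cortex was hybridised to 9 one-colour whole mouse genome arrays, 1 per region and diet. The deposited intensity values are processed signals written by Agilent Feature Extraction 9.5.1.1, per the submitters' processing notes, with background subtracted, per the file headers. The deposited flags, of another kind of unit (other), record which spots exceed background, are saturated or are outliers, per the file headers. From these, log2 signal was taken relative to each array's 75th percentile over noncontrol spots, after removal of control spots and outlier flags, and spots of a probe were averaged. Of 41174 probes, 22951 were matched by accession to RefSeq names, giving 16358 genes, each by its brightest probe. Genes well above background on 3 or more arrays and valued on 6 or more were fitted: 12622. The precision is limited by the number of arrays. The median SE of a difference was 0.136.

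limma 3.58.1 in R 4.3.3 fitted region and diet on all 9 arrays, leaving 4 residual degrees of freedom. P-values were adjusted over all fitted genes by the Benjamini-Hochberg method, with a threshold of 0.05. Tables used Python 3.11.15, numpy 2.4.6 and pandas 2.3.3. The fit was checked on simulated data with independent noise and no effects of slide or pool. Of 50 genes changed by 0.5 log2 units it recovered 5, and of 50 changed by 1 unit it recovered 46. It called 9 of 12422 unchanged genes. Small differences were therefore mostly missed, and a gene that did not pass may still differ. The regions of a diet came from the same pooled mice, as the labels of diet and protocol give it, so the diet term also serves as the replicate block. Adjusted p-values treat the 3 diets as replicates. The diet term removes what the regions of a pool share. The p-values therefore rest on how the differences between regions varied from diet to diet, together with array and slide error.

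The 43 gene lists and the comparison were chosen with earlier results of these data known. Genes were named by size of difference among called genes (15 in each direction, and 8 by fold bound), by list (up to 4 in each direction, with all members of the amygdala and cortical lists), by being highest or lowest in a region (5), by spread between diets (5), and as defining markers. Slc17a7, Slc32a1, Gad1, Gad2, Hcrt, Pmch, Scg2, Fos, Reln, Kcne2, Hmx3 and the neuropeptides that did not pass were named after their values were seen. Alternatives were other background correction, scaling, filters and probe summaries, slide as a block, no diet term, the 6 arrays alone and the omission of arrays or pools. The series' value table was not used here, since its values are set against each region's own AD array. The 18223 probes without a match were not analysed here. Some genes that the rule would name are not reported here, though they stay in the counts.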

Additional observations from a re-analysis of the deposited data

How the results depend on the processing

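Counts of genes are given as higher and lower in amygdala. The reported fit gave 1531 and 1283 genes. With normexp background correction there were 1200 and 1296, with quantile scaling 1460 and 1392, with median centring 999 and 1772, without the filter on dim genes 1238 and 1004, with only genes detected on all 9 arrays 1336 and 1250, with dim values raised to the array floor 1476 and 1307, with probes of a gene averaged 1435 and 1236, with trended and robust variances 1604 and 1437, and with slide as a random block 1536 and 1286. Without the diet term, which is the replicate block, 2415 genes passed, 1287 higher and 1128 lower. The count moved by over 1.5 times with the 6 arrays of both regions alone (1803) and with slide as a fixed block (1390), which also left 2 residual degrees of freedom. Leaving out 1 array or 1 pool gave 892 to 3703 genes for amygdala against prefrontal cortex, the lowest without the RFR pool and the highest without the AD amygdala array. The others outside 1.5 times were 1568 without the CR pool, 1812 without the RFR amygdala array, and 1827, 1628 and 1661 without the AD, RFR and CR prefrontal cortex arrays. The same omissions gave 1429 to 4650 for amygdala against hypothalamus (2237 without the CR pool) and 3494 to 7291 for hypothalamus against prefrontal cortex. In fits that lost 1 array of a region and diet, the remaining arrays were assumed to vary alike. Of single values, that of Krt8 reversed, to 0.0869 by the mean of all probes, against -1.89. The medians of the hippocampal, GABA receptor, steroid, axon guidance and neurotrophin lists changed sign with slide as a fixed block, to -0.10, 0.01, -0.07, 0.22 and -0.01, and that of the serotonin receptors changed to -0.05 with normexp. That of the glutamate receptors changed to -0.05 with normexp and with slide as a fixed block. The cause was not tested. Over the 267 named genes and the alternatives, 4972 values kept direction and side of the threshold, 522 kept direction but were no longer past it, 33 came past it and 1 reversed. Dim genes are limited by background, and their folds are lower bounds that depend on the floor chosen and on the background correction.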
